A study of Mus musculus with 8 samples.

Results

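The TNF ligand and receptor superfamily was examined in the mouse T cell line CTL-EN, which had been made to carry the beta common chain (beta-c) of the human GM-CSF receptor. Members were all genes whose symbol starts with Tnfsf or Tnfrsf, together with Tnf, Lta, Ltb, Fas, Fasl, Cd27, Cd40, Cd40lg, Cd70 and Ltbr. This gave 37 genes, 15 ligands and 22 receptors, of 15096 genes with a named probe on the arrays. The members had 39 probes, and Tnfrsf9 and Tnfrsf10b had 2 each. Each gene was read from its brightest probe. Tnfrsf14, Tnfrsf26, Tnfsf13os, Tnfsf15, Tnfsf18 and Tnfsfm13 were not analysed here.

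The cells carried beta-c either with the Ser585Gly change or as wild type (WT), and both populations lacked factor for 12 h in RPMI with 0.5% CS before the 0 h sample. For the 12 h samples, 50 ng/mL of human GM-CSF followed for another 12 h. Total RNA was compared on 8 two-colour arrays that formed a square with 4 edges: Ser585Gly 12 h against 0 h, WT 12 h against 0 h, Ser585Gly against WT at 0 h, and Ser585Gly against WT at 12 h. Each edge had 2 arrays with opposite dyes; array 1 had the 12 h or Ser585Gly RNA in Cy5, and array 2 the reverse. Separate cultures are not named in the labels, so the arrays of an edge were read as technical repeats, and every p-value measures the spread between hybridisations only. No array held cells kept for 12 h without GM-CSF, so GM-CSF and time cannot be told apart. Each genotype was 1 cell population, so the mutation and the population cannot be told apart. The human chain has no probe here, and the introduced gene was not measured.

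Ligands of the TNF superfamily are trimers that sit on the cell surface or are shed from it, and they cluster receptors that carry cysteine-rich repeats. Clustered receptors recruit TRAF adaptors, which lead to the transcription factor NF-kB and to MAP kinases, or, through a death domain, the caspase that starts apoptosis. In T cells the family holds killing molecules (Fasl, Tnf, Lta), costimulatory receptors (Cd27, Tnfrsf4, Tnfrsf9, Tnfrsf18) and ligands for B cells and dendritic cells (Cd40lg, Ltb).

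Across the arrays, median spot brightness before correction ran between 631 and 946 intensity units for Cy5 and between 795 and 1105 for Cy3. The deposited ratios were matched to scanner spots by values, and 88.7% of 21779 placed probes had their own spot as the nearest. Names were then moved to a 24-pin print order, on which every gene name rests. The 88.7% describes the matching and does not test that order. The T cell markers had a median brightness percentile of 93.3 over 12 genes, and Cd4 was the one dim marker, at 1.21. B cell markers had a median of 29.4 over 6 genes, myeloid markers 21.9 over 7, dendritic markers 31.6 over 4, mast cell markers 50.5 over 5, erythroid markers 23.9 over 4 and stromal markers 47.3 over 5. Single markers were brighter than the T cell marker Cd2 (69.1): Cma1 (mast cell, 92), Col1a1 (stromal, 87.7), Hba-a1 (erythroid, 77.2) and Elane (myeloid, 70.6). The brightest B cell and dendritic markers were at 45 and 49.4. Cd3e and Cd3g, T cell receptor subunits, were lower at 12 h, with log2 ratios of -0.90 and -0.72 in Ser585Gly cells, against -0.84 and -0.71 in WT cells. Of the markers of other lineages, Ighm (an immunoglobulin heavy chain) was lower at 12 h in WT cells, with log2 ratios of 0.05 in Ser585Gly cells and -1.38 in WT cells, and Hba-a1 (a globin) was lower in both, at -0.49 and -0.45. Their part in the members' changes was not tested. In such RNA from whole cultures, fewer cells of a type and less RNA per cell cannot be told apart. No member probe was under the brightness of empty wells. Readings of Cd70, Ltbr, Tnfrsf25, Tnfsf11, Tnfsf13 and Tnfsf4 were weak, with at least 1 of 4 readings of a condition below that of empty wells.

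At 12 h of GM-CSF the family moved in a few members, and 6 of them rose in both populations. In Ser585Gly cells 8 of 37 members rose (5.73% of all probes tested rose) and 1 fell (4.72% fell), where 10.5% of probes passed in either direction. In WT cells 9 of 37 rose (5.43% of probes) and none fell (4.03% of probes), where 9.46% of probes passed in either direction. Calls are adjusted p-values under 0.05 in the limma fit of all 8 arrays. The members that rose in both populations were Lta, Tnf, Tnfrsf11a, Tnfrsf11b, Tnfrsf13b and Tnfrsf18. With the arrays of each edge averaged before the fit, these 6 were the members past the threshold in each population. At an unadjusted p under 0.05, 13 members passed in Ser585Gly cells and 12 in WT cells. The share of all probes at that level was not computed, so no excess is read from these counts. The median log2 ratio over the members was 0.08 in Ser585Gly cells and 0.06 in WT cells, against 0.01 and -0.01 over all probes.

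**Figure D1:**
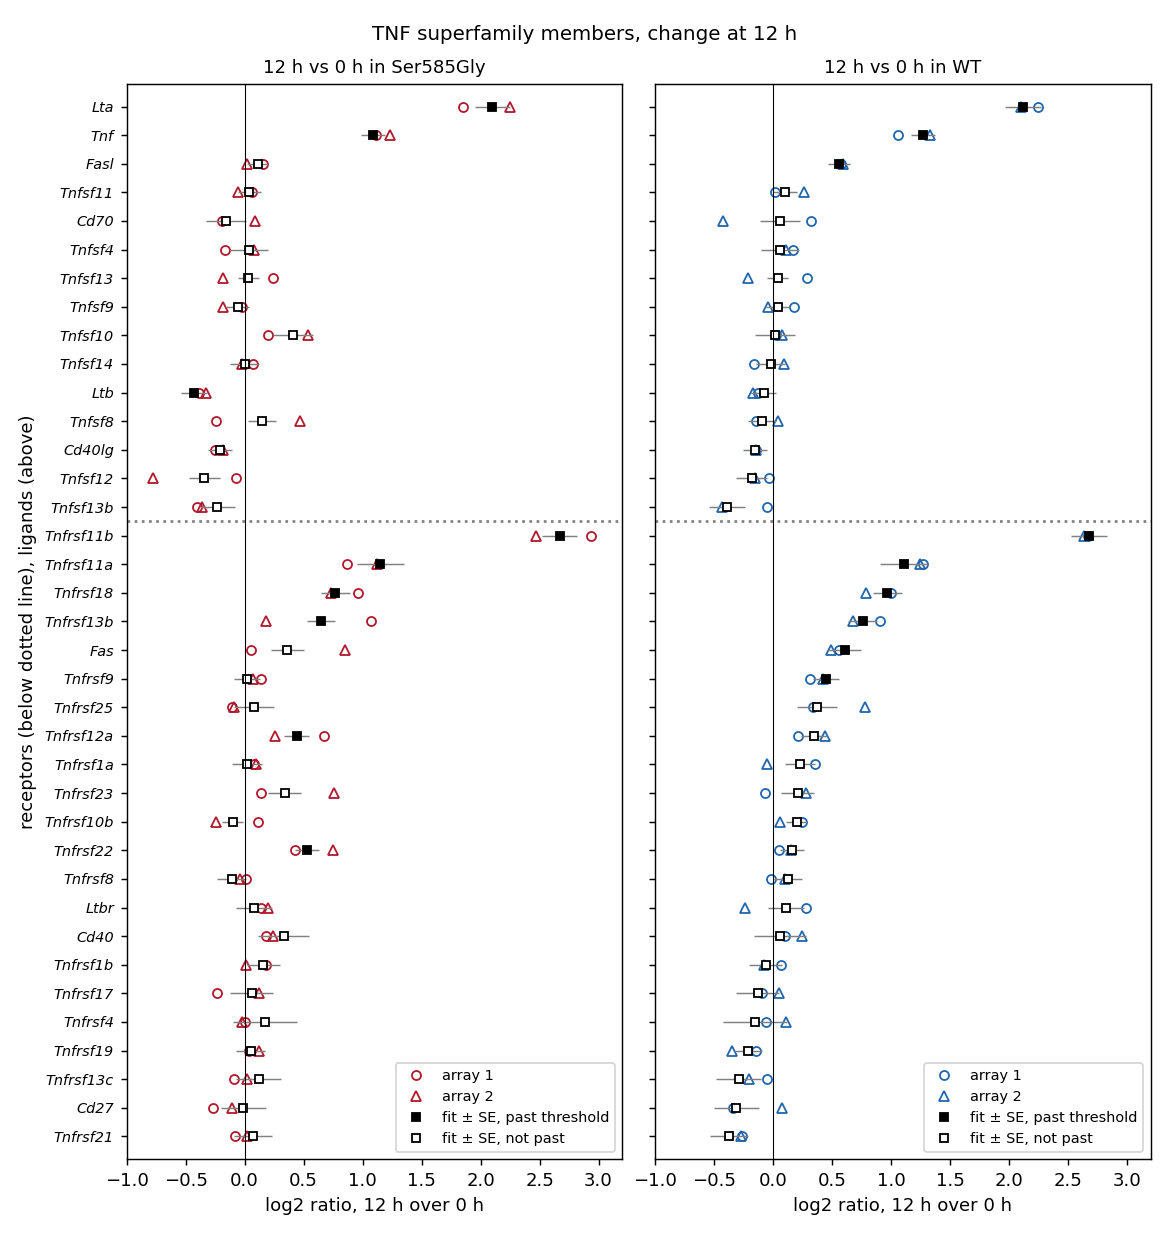
Log2 ratio of 12 h over 0 h (horizontal axis) for each of the 37 members (vertical axis, ligands above and receptors below the dotted line), in Ser585Gly cells (left) and WT cells (right). Circles and triangles are arrays 1 and 2, squares with bars are fitted changes with their standard error, and black squares passed the threshold; Lta and Tnfrsf11b stand apart at log2 ratios above 1.8 on all 4 of these arrays.

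Lta, Tnf and Ltb encode lymphotoxin alpha, TNF and lymphotoxin beta, and lie in a row on chromosome 17 in the order Ltb, Tnf, Lta, with 1 microRNA gene between Ltb and Tnf in GRCm38.p6. Lymphotoxin alpha is secreted as a trimer that binds the TNF receptors, and joins lymphotoxin beta in a surface complex that binds Ltbr. The 250 bases before the start of each gene (RefSeq, GRCm38.p6) are shown because Lta and Tnf rose in both populations and Ltb did not. Capitals mark matches, on either strand, to the STAT pattern TTCNNNGAA, the form bound by STAT proteins downstream of cytokine receptors, or to the NF-kB pattern. They come from chr17:35205352-35205601 (minus strand) for Lta, chr17:35202008-35202257 (minus strand) for Tnf and chr17:35194257-35194506 (plus strand) for Ltb.
Lta: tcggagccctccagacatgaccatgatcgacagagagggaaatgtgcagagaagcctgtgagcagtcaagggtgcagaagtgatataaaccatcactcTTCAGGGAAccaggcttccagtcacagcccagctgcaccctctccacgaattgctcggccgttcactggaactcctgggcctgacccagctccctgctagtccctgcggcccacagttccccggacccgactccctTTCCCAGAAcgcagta
Tnf: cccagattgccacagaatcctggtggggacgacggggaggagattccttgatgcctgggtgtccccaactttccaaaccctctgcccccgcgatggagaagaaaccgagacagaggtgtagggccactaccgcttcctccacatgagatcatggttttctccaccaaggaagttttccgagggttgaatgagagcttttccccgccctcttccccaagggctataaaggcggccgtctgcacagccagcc
Ltb: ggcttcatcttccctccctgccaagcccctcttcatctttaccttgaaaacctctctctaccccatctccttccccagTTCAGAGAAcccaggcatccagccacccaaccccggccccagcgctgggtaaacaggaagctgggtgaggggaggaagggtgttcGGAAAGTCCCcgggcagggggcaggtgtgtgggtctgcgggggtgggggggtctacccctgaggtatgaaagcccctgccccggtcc
The Lta sequence held 2 STAT matches, TTCAGGGAA at -152 to -144 and TTCCCAGAA at -16 to -8 relative to the start. The Ltb sequence held TTCAGAGAA at -172 to -164 and an NF-kB match, GGAAAGTCCC, at -87 to -78. The Tnf window held neither pattern. Bases further upstream, and other forms of these sites, were not searched. Among 32851 mouse promoters of this length, 7.02% held a STAT match and 0.317% held at least 2, and 7.25% held an NF-kB match. Of the 28 members with a promoter sequence, 8 held a STAT match (Fas, Lta, Ltb, Tnfrsf18, Tnfrsf1a, Tnfrsf1b, Tnfrsf25 and Tnfrsf9), 4 an NF-kB match and 6 an AP-1 match (TGACTCA or TGAGTCA, found in 4.46% of promoters). A member was counted if any of its promoters matched, whereas the percentages are of single promoters. The counts and the percentages are therefore not directly comparable. Of the 8 with a STAT match, Tnfrsf1a, Tnfrsf1b and Tnfrsf25 passed in no comparison. Of the 6 members that rose in both populations, Lta and Tnfrsf18 were among these 8. Tnf, Tnfrsf11a, Tnfrsf11b and Tnfrsf13b were not, and Tnfrsf11b had no promoter sequence to search. Lta was the one member with at least 2 STAT matches. These matches overlap no other searched pattern in the printed windows and describe letters, not binding.

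Lta had log2 ratios of 12 h over 0 h of 1.85 and 2.25 on the Ser585Gly arrays, against 2.25 and 2.10 on the WT arrays. All 4 arrays were high, and the ranges of the 2 populations overlapped. Its fitted log2 change was 2.10 ± 0.15 (SE, adjusted p = 0.000283) in Ser585Gly cells and 2.12 ± 0.15 (adjusted p = 0.000252) in WT cells. Tnf, the founding cytokine of the family, had log2 ratios of 1.11 and 1.23 on the Ser585Gly arrays, against 1.06 and 1.33 on the WT arrays. Again all 4 arrays were above 0 and the populations overlapped. Tnf rose by 1.09 ± 0.10 in Ser585Gly cells (adjusted p = 0.000651) and by 1.27 ± 0.10 in WT cells (adjusted p = 0.00034) on the log2 scale.

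Ltb did not rise. Its log2 ratios were -0.39 and -0.33 on the Ser585Gly arrays, against -0.13 and -0.17 on the WT arrays, so that all 4 were below 0 and the populations did not overlap. The fitted log2 change was -0.43 ± 0.11 in Ser585Gly cells (adjusted p = 0.0445) and -0.08 ± 0.11 in WT cells (adjusted p = 0.731). The call in Ser585Gly cells was lost under 10 of 20 alternatives, among them the averaged arrays (adjusted p = 0.107), and it did not hold without either Ser585Gly 12 h over 0 h array (0.255 without array 1, 0.108 without array 2). It also did not hold without array 2 of the 0 h mutation edge (0.0761), array 1 or 2 of the 12 h mutation edge (0.0734 and 0.0872), or WT time array 1 or 2 (0.0939 and 0.103). The other ligands of this branch and its receptors did not pass. Tnfsf14 (LIGHT) had fitted log2 changes of 0.00 in Ser585Gly cells and -0.02 in WT cells.

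The probe readings by condition show the same order for Lta and Tnf. Log2 intensity of the Lta probe averaged 13.98 ± 0.17 in Ser585Gly cells at 12 h and 11.77 ± 0.27 at 0 h (SD over 4 readings, 2 edges in both dyes). In WT cells it averaged 14.42 ± 0.14 at 12 h and 12.20 ± 0.22 at 0 h. The 12 h and 0 h readings did not overlap in either population, from 13.78 up at 12 h and 12.51 down at 0 h. For Tnf the log2 intensity was 11.54 ± 0.44 at 12 h and 10.63 ± 0.69 at 0 h in Ser585Gly cells, and 11.78 ± 0.45 and 10.70 ± 0.58 in WT cells. Single Tnf readings overlapped between times in Ser585Gly cells, where the lowest 12 h reading was 10.90 and the highest 0 h reading 11.30. Ltb readings were spread over more than 1 log2 unit within each condition, at 12.23 ± 1.0 and 12.18 ± 0.88 in Ser585Gly cells and 12.86 ± 0.56 and 12.46 ± 0.91 in WT cells (12 h, then 0 h). Such readings carry the array and the dye. The log2 ratio within an array removes the array, and the dye is a term of the fit.

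**Figure D2:**
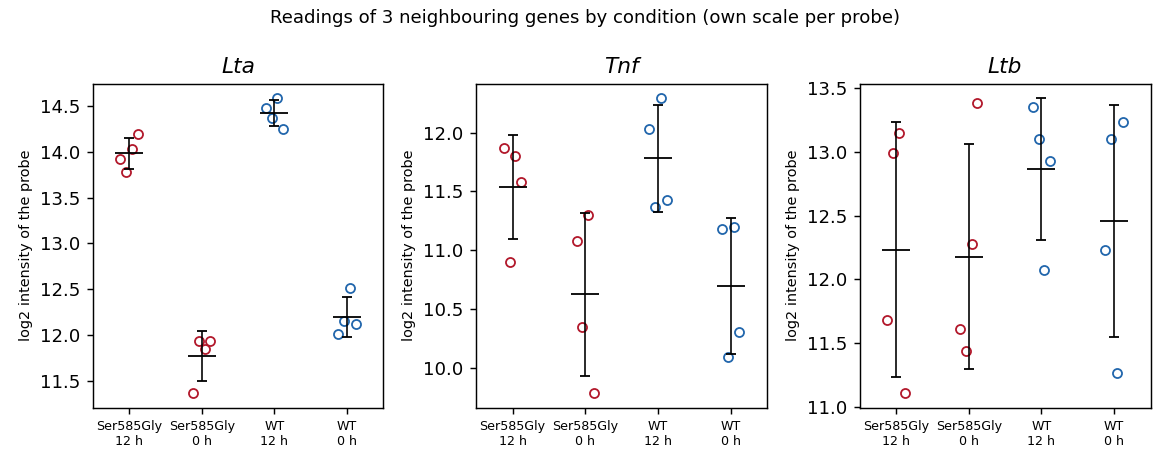
Log2 intensity (vertical axis, its own scale for each probe) of the Lta, Tnf and Ltb probes in Ser585Gly cells and WT cells at 12 h and 0 h (horizontal axis), with 4 readings per condition as circles and the mean ± SD as bars. For Lta the 12 h readings lie above all 0 h readings, and for Ltb the conditions overlap.

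The receptors for TNF and lymphotoxin did not pass in any comparison. Tnfrsf1a, the widely expressed TNF receptor with a death domain, had log2 ratios of 12 h over 0 h of 0.08 and 0.10 on the Ser585Gly arrays, against 0.36 and -0.05 on the WT arrays. Tnfrsf1b, the TNF receptor that recruits TRAF proteins and is typical of lymphocytes, had 0.18 and 0.01 against 0.07 and -0.08. Ltbr, the lymphotoxin beta receptor of stromal and myeloid cells, had 0.14 and 0.20 against 0.28 and -0.24. Fitted log2 changes of these 3 receptors lay between -0.06 for Tnfrsf1b in WT cells and 0.23 for Tnfrsf1a in WT cells, with standard errors of 0.13 to 0.15.

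Tnfrsf11b encodes osteoprotegerin, the soluble decoy for RANK ligand, and had the largest fitted rise of the 37 members in both populations. Its log2 ratios were 2.94 and 2.47 on the Ser585Gly arrays, against 2.67 and 2.64 on the WT arrays. Every array was high, and the WT values lay between those of Ser585Gly. The fitted log2 change was 2.67 ± 0.15 in Ser585Gly cells (adjusted p = 0.000148) and 2.68 ± 0.15 in WT cells (adjusted p = 0.00012). The log2 intensity of its probe averaged 11.34 ± 0.71 at 12 h and 8.57 ± 0.46 at 0 h in Ser585Gly cells, and 11.09 ± 0.48 at 12 h and 8.30 ± 0.13 at 0 h in WT cells (SD, 4 readings). In both populations every 12 h reading lay above every 0 h reading.

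Tnfrsf11a encodes RANK, the signalling receptor for the same ligand. It had log2 ratios of 0.87 and 1.12 on the Ser585Gly arrays, against 1.27 and 1.25 on the WT arrays, all above 0 and without overlap between the populations. It rose by 1.15 ± 0.20 in Ser585Gly cells (adjusted p = 0.00876) and by 1.11 ± 0.20 in WT cells (adjusted p = 0.0115) on the log2 scale. This fit also draws on the mutation arrays. The arrays of each time edge alone gave 0.99 in Ser585Gly cells and 1.26 in WT cells, the reverse order. The calls were lost without Ser585Gly time array 1 (adjusted p = 0.0853) and without WT time array 1 or 2 (0.11 and 0.122). Tnfsf11, RANK ligand itself, had fitted log2 changes of 0.04 in Ser585Gly cells and 0.10 in WT cells, from the dimmest member probe (brightness percentile 6.53). Within this ligand and receptor trio, both receptors rose and the ligand did not pass.

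Tnfrsf18 encodes GITR, a costimulatory receptor of activated and regulatory T cells. Its promoter (RefSeq, GRCm38.p6, chr4:156026072-156026321, plus strand) is shown as an example from the 6 members that rose in both populations. Tnfrsf11a, Tnfrsf11b and Tnfrsf13b also rose in both. Their promoters are not shown, and none of them was among the 8 members with a STAT match. Tnfrsf18 is 1 of those 8, 3 of which passed in no comparison, and capitals mark the match TTCACAGAA at -99 to -91.
Tnfrsf18: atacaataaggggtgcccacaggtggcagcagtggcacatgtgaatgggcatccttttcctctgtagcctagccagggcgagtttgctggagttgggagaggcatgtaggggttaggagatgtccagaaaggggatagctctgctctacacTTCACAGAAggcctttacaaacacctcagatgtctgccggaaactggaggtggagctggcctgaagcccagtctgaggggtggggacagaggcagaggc
Tnfrsf18 had log2 ratios of 0.96 and 0.73 on the Ser585Gly arrays, against 1.0 and 0.79 on the WT arrays. All 4 were above 0.7 and the populations overlapped. It rose by 0.77 ± 0.12 in Ser585Gly cells (adjusted p = 0.00524) and by 0.97 ± 0.12 in WT cells (adjusted p = 0.00211) on the log2 scale. The Ser585Gly call was lost without time array 1 (adjusted p = 0.101) or 2 (0.052) of that population. Tnfrsf4 (OX40), a related costimulatory receptor whose gene lies nearby on chromosome 4, had log2 ratios of 0.00 and -0.02 on the Ser585Gly arrays and -0.06 and 0.11 on the WT arrays.

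Tnfrsf13b encodes TACI, a receptor for the B cell factors BAFF and APRIL. It had log2 ratios of 1.07 and 0.18 on the Ser585Gly arrays, against 0.91 and 0.68 on the WT arrays. All were above 0, but array 2 of Ser585Gly was far below array 1. It rose by 0.65 ± 0.12 in Ser585Gly cells (adjusted p = 0.0139) and by 0.76 ± 0.12 in WT cells (adjusted p = 0.00836) on the log2 scale. The calls were lost without Ser585Gly time array 1 (adjusted p = 0.202) and without WT time array 1 or 2 (0.0633 and 0.122). The Ser585Gly call was also lost in the limma fit that read each edge from its own arrays only (adjusted p = 0.0615). The other 4 genes of this branch did not pass: the ligands Tnfsf13b (BAFF) and Tnfsf13 (APRIL) and the receptors Tnfrsf13c and Tnfrsf17 had fitted log2 changes between -0.39 and 0.12 over both populations.

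Among the death receptors and their ligands, each call at 12 h stood in 1 population, and each was lost with the arrays averaged. Fasl, the ligand with which cytotoxic T cells kill, had log2 ratios of 0.16 and 0.02 on the Ser585Gly arrays, against 0.58 and 0.59 on the WT arrays, without overlap. It rose by 0.56 ± 0.09 in WT cells (adjusted p = 0.0083, and 0.0503 with averaged arrays), with a fitted 0.11 ± 0.09 in Ser585Gly cells (adjusted p = 0.531). The WT call was lost without WT time array 1 (adjusted p = 0.0768) or 2 (0.117). Fas, its receptor, had log2 ratios of 0.05 and 0.85 on the Ser585Gly arrays, against 0.56 and 0.49 on the WT arrays. The WT arrays lay inside the wide Ser585Gly range. The fitted log2 change of Fas was 0.36 ± 0.14 in Ser585Gly cells (adjusted p = 0.162) and 0.61 ± 0.14 in WT cells (adjusted p = 0.0318), and 9 of 20 alternatives lost the WT call. Its adjusted p was between 0.0557 and 0.186 without any one of 6 arrays, highest without WT time array 1, and it passed without array 1 of the 0 h mutation edge and without Ser585Gly time array 2.

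Tnfrsf12a, the TWEAK receptor Fn14, had log2 ratios of 0.67 and 0.26 on the Ser585Gly arrays, against 0.21 and 0.44 on the WT arrays. The 4 values were above 0 and overlapped. Its fitted log2 change was 0.44 ± 0.11 in Ser585Gly cells (adjusted p = 0.0405) and 0.35 ± 0.11 in WT cells (adjusted p = 0.095); the Ser585Gly call was lost under 9 of 20 alternatives. Its adjusted p was between 0.0695 and 0.391 without any one of 6 arrays, highest without Ser585Gly time array 1, and it passed without array 1 of the 0 h mutation edge and without WT time array 1. Tnfrsf22, a decoy receptor for TRAIL in the mouse, had log2 ratios of 0.43 and 0.75 on the Ser585Gly arrays, against 0.05 and 0.15 on the WT arrays. The Ser585Gly arrays were both higher. It rose by 0.53 ± 0.10 in Ser585Gly cells (adjusted p = 0.0124) and had a fitted 0.16 ± 0.10 in WT cells (adjusted p = 0.369). The Ser585Gly call was lost without time array 1 (adjusted p = 0.153) or 2 (0.108) of that population and with averaged arrays (0.0608). Its neighbour and close relative Tnfrsf23, also a TRAIL decoy, had 0.14 and 0.76 on the Ser585Gly arrays and -0.07 and 0.28 on the WT arrays, and it passed in Ser585Gly cells without array 1 of the 0 h mutation edge (adjusted p = 0.0332). Whether probes of these related genes share signal was not tested.

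The costimulatory pairs of B cell and T cell contact did not pass at 12 h. Cd40lg, the T cell help ligand, had log2 ratios of -0.25 and -0.18 on the Ser585Gly arrays, against -0.14 and -0.14 on the WT arrays, all slightly below 0 and without overlap. Cd40, its receptor, had 0.18 and 0.24 against 0.10 and 0.25. Cd70 had -0.19 and 0.09 against 0.32 and -0.42, and Cd27, its receptor on T cells, had -0.27 and -0.11 against -0.34 and 0.08. For Cd40, Cd70 and Cd27 the values of the populations overlapped. Their adjusted p-values at 12 h were between 0.401 (Cd27 in WT cells) and 0.982 (Cd27 in Ser585Gly cells), and those of Cd40lg were 0.255 in Ser585Gly cells and 0.434 in WT cells. Over both populations, the members that passed in no comparison (23 of 37) had fitted log2 changes at 12 h between -0.39 (Tnfsf13b in WT cells) and 0.41 (Tnfsf10, the TRAIL ligand, in Ser585Gly cells).

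Counts in the lists of genes downstream of the receptors were small. In Ser585Gly cells 5.73% of all probes rose and 4.72% fell, against 5.43% and 4.03% in WT cells. Of 34 measured adaptor and death-signalling genes, 2 rose and none fell in Ser585Gly cells, against 4 that rose and 2 that fell in WT cells. The count in Ser585Gly cells was close to the share of all probes. Casp8, the caspase recruited by death receptors, had fitted log2 changes of 1.06 ± 0.14 in Ser585Gly cells (adjusted p = 0.00335) and 0.85 ± 0.14 in WT cells (adjusted p = 0.00911). Diablo, a mitochondrial antagonist of IAP proteins, rose by 0.93 ± 0.11 in Ser585Gly cells and by 0.54 ± 0.11 in WT cells. In WT cells Cflar (the caspase inhibitor cFLIP) rose by 0.80 ± 0.10 and Traf6 by 0.69 ± 0.14, while Tradd fell by 0.72 and Tnip1 fell by 0.45. In Ser585Gly cells the fitted values were 0.29 for Cflar, 0.16 for Traf6, -0.51 for Tradd and -0.09 for Tnip1, none of which passed.

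Of 11 measured NF-kB subunits and regulators, 1 rose in Ser585Gly cells and 3 rose in WT cells, with none lower, beside 5.73% and 5.43% of all probes that rose. Nfkb2, the precursor of the non-canonical subunit, rose by 0.65 ± 0.17 in Ser585Gly cells (adjusted p = 0.0447) and by 0.78 ± 0.17 in WT cells (adjusted p = 0.0241). Bcl3 and Nfkbiz, nuclear IkB proteins, rose by 0.83 and 0.49 in WT cells, with fitted values of 0.59 and 0.39 in Ser585Gly cells that did not pass (adjusted p = 0.0742 and 0.0546). Of 22 measured genes known to be induced by TNF, 2 rose and 1 fell in Ser585Gly cells, against 4 that rose and none that fell in WT cells. In Ser585Gly cells the counts of this list and of the NF-kB list were close to the shares of all probes (5.73% higher, 4.72% lower). Ier2 and Tnfaip2 rose in both populations, by 0.46 and 0.41 in Ser585Gly cells and by 0.65 and 0.48 in WT cells. Junb, an AP-1 subunit, fell by 0.44 in Ser585Gly cells, and its fitted value in WT cells was -0.23 (adjusted p = 0.177). Ier3 and Fth1 rose by 0.81 and 0.63 in WT cells. The median log2 change of each of these 3 lists was between 0.03 and 0.18, against 0.01 in Ser585Gly cells and -0.01 in WT cells over all probes.

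Between the populations at 0 h, in factor-deprived cells, 3 of 37 members were higher in Ser585Gly cells (2.07% of all probes tested were higher) and 1 was lower (2% were lower), where 4.07% passed in either direction. At an unadjusted p under 0.05, 13 members passed, a level at which the share of all probes was not computed. One of the 2 arrays stood apart. On array 1 of this edge 11 members had log2 ratios of Ser585Gly over WT below -0.7, namely Cd27, Cd40, Lta, Tnfrsf11a, Tnfrsf13c, Tnfrsf17, Tnfrsf21, Tnfrsf4, Tnfsf10, Tnfsf4 and Tnfsf8. On array 2 the same 11 lay between -0.36 and 0.37. Over all probes, 13.1% were below -0.7 on array 1 and 1.51% on array 2, and the dye-swap correlation over all probes was 0.124 here and 0.219 on the mutation edge at 12 h, against 0.509 and 0.515 on the Ser585Gly and WT time edges. Without array 1, 1 member passed at 0 h. The count was also 1 without array 2 of this edge, array 2 of the 12 h mutation edge, WT time array 2 or Ser585Gly time array 1. Of the B cell markers, Ighm was lower in Ser585Gly cells at 0 h, with a log2 difference of -2.08 (adjusted p = 0.000385), and the other 5 did not pass; its part in the members' values was not tested.

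**Figure D3:**
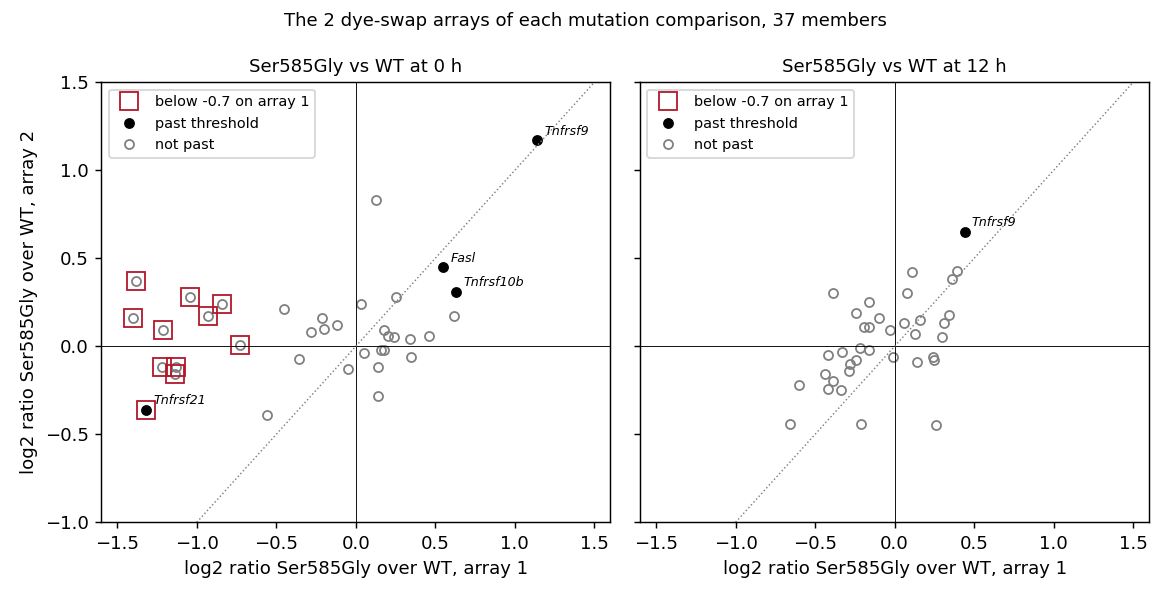
Log2 ratio of Ser585Gly over WT on array 1 (horizontal axis) and array 2 (vertical axis) for the 37 members, at 0 h (left) and 12 h (right). Filled points passed the threshold, red squares mark the 11 members below -0.7 on array 1, and the dotted line marks equal values; at 0 h those 11 lie left of the line while Tnfrsf9 lies on it.

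Tnfrsf9, also called 4-1BB, is a costimulatory receptor induced on activated T cells, and it was the one member past the threshold between the populations at both times. Its brighter probe had log2 ratios of Ser585Gly over WT of 1.14 and 1.17 at 0 h and 0.44 and 0.65 at 12 h. All 4 arrays were above 0, and the 0 h values lay above the 12 h values. The fitted log2 difference was 1.07 ± 0.11 at 0 h (adjusted p = 0.00217) and 0.63 ± 0.11 at 12 h (adjusted p = 0.0252). The second probe did not show this, with 0.22 and -0.32 at 0 h and -0.24 and -0.62 at 12 h. Fitted values of that probe were -0.16 ± 0.21 at 0 h (adjusted p = 0.678) and -0.33 ± 0.21 at 12 h (adjusted p = 0.583). With both probes averaged, the log2 difference was 0.45 at 0 h (adjusted p = 0.0946) and 0.15 at 12 h (adjusted p = 0.7). The brighter probe was at brightness percentile 97.6 and the other at 67.8.

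Within each population over time, the brighter Tnfrsf9 probe had log2 ratios of 12 h over 0 h of 0.14 and 0.07 on the Ser585Gly arrays, against 0.31 and 0.42 on the WT arrays. The WT arrays were both higher. The fitted change was 0.02 ± 0.11 in Ser585Gly cells (adjusted p = 0.943) and 0.45 ± 0.11 in WT cells (adjusted p = 0.0334). The WT call was lost under 11 of 20 alternatives, with an adjusted p of 0.607 when both probes were averaged and between 0.0599 and 0.171 without any one of 7 arrays. It passed without array 1 of the 0 h mutation edge.

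The other calls at 0 h were smaller. Fasl had log2 ratios of Ser585Gly over WT of 0.55 and 0.45 at 0 h, both above 0, and a fitted difference of 0.52 ± 0.09 (adjusted p = 0.0217). The Fasl call was lost under 9 of 20 alternatives, with an adjusted p of 0.0835 with averaged arrays and 0.066 and 0.108 without array 1 or 2 of this edge; it passed without 2 of the 8 arrays, array 1 of the 12 h mutation edge and Ser585Gly time array 2. Tnfrsf10b, the mouse TRAIL death receptor, had 0.63 and 0.31 on its brighter probe and 0.21 and -0.06 on the other. Its fitted difference of 0.43 ± 0.09 (adjusted p = 0.0411) was lost under 13 of 20 alternatives, in each of the 8 fits without 1 array among them, and the other probe gave 0.08 ± 0.14 (adjusted p = 0.769). Tnfrsf21, the orphan death receptor DR6, had -1.32 on array 1 and -0.36 on array 2, a fitted difference of -0.73 ± 0.16 (adjusted p = 0.0414). Both arrays were below 0 but far apart. Without array 1 the difference of Tnfrsf21 was -0.41 and did not pass (adjusted p = 0.108), and without array 2 the adjusted p was 0.101. It was also lost without array 1 or 2 of the 12 h mutation edge (0.0661 and 0.0901), WT time array 2 (0.109) and Ser585Gly time array 1 (0.111).

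Lta and Tnfrsf11a, which rose at 12 h, had ratios below 0 in Ser585Gly cells on all 4 mutation arrays, without passing. Lta had log2 ratios of Ser585Gly over WT of -1.14 and -0.16 at 0 h and -0.66 and -0.44 at 12 h, with fitted differences of -0.59 ± 0.15 (adjusted p = 0.0718) and -0.61 ± 0.15 (adjusted p = 0.119). Some alternatives brought Lta past the threshold. These were print-tip loess (-0.40), the deposited ratios (-0.32), the random block (-0.59) and the trended prior (-0.59) at 0 h, and scaled arrays (-0.63), the deposited ratios (-0.40) and the random block (-0.61) at 12 h. Each of these settings also passed more of all probes than the 886 reported at 0 h (2041, 2553, 3385 and 1279 in that order). At 12 h 374 were reported, against 736, 2205 and 1133. The estimated correlation of the random block was -0.326, below 0 for arrays read as technical repeats. Tnfrsf11a had -1.22 and -0.12 at 0 h and -0.21 and -0.44 at 12 h, with fitted differences of -0.52 (adjusted p = 0.172) and -0.48 (adjusted p = 0.353). Tnfrsf11b was above 0 on all 4 arrays, at 0.13 and 0.83 at 0 h and 0.39 and 0.43 at 12 h (fitted 0.45 and 0.44, adjusted p = 0.14 and 0.268). Tnfsf9, the ligand of Tnfrsf9, had 0.62 and 0.17 at 0 h and 0.36 and 0.38 at 12 h (fitted 0.43 and 0.34, adjusted p = 0.0569 and 0.2), and 5 alternatives brought it past the threshold at 0 h. For these 4 genes the sign was the same on all 4 mutation arrays, and the difference did not pass at either time. The same held for Tnfsf11 and Tnfsf12, above 0, and for Tnfrsf12a, below 0. Fasl, Tnfrsf9 and Tnfrsf21, which passed at 0 h, also kept their sign on all 4. The share of all probes that keep their sign was not computed.

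Several members that were named for their role had mutation values on both sides of 0. Tnf had log2 ratios of Ser585Gly over WT of -0.12 and 0.12 at 0 h and -0.42 and -0.24 at 12 h. Tnfrsf1a had 0.18 and 0.09 at 0 h and -0.42 and -0.05 at 12 h, and Tnfrsf1b had -0.45 and 0.21, then 0.31 and 0.13. Ltbr had -0.28 and 0.08 at 0 h and -0.44 and -0.16 at 12 h. Cd40 had -1.40 and 0.16, then -0.22 and -0.01, so its low value at 0 h stood on array 1 alone. Cd27 followed that shape, with -0.93 and 0.17 at 0 h and 0.34 and 0.18 at 12 h. Cd40lg (0.18 and -0.02, then -0.10 and 0.16), Cd70 (0.46 and 0.06, then -0.33 and -0.03), Fas (0.03 and 0.24, then -0.34 and -0.25) and Ltb (0.34 and 0.04, then -0.39 and -0.20) were above and below 0. None of these 10 passed in either mutation comparison.

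At 12 h, 1 of 37 members was higher in Ser585Gly cells (0.918% of probes), Tnfrsf9, and none was lower (0.799% of probes), where 1.72% of probes passed in either direction. At an unadjusted p under 0.05, 8 members passed in the limma fit, and the share of all probes at that level was not computed. The Tnfrsf9 call was lost under 11 of 20 alternatives, with an adjusted p of 0.127 with averaged arrays and 0.103 and 0.248 without array 1 or 2 of this edge; it passed without array 1 of the 0 h mutation edge and not in the other 7 fits without 1 array. The members that did not pass had fitted log2 differences between -0.61 (Lta) and 0.44 (Tnfrsf11b). In the pathway lists, no gene of the 3 lists passed at 12 h. At 0 h, Traf1 and Cflar were higher (0.59 and 0.53) and Rbck1 was lower (-0.70) in Ser585Gly cells among 34 adaptor genes. At that time 2.07% of all probes were higher and 2% lower.

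The difference between the responses, Ser585Gly minus WT, was tested directly by the interaction term, and no member passed (0.0551% of probes passed in either direction, 0.0275% higher and 0.0275% lower). Of the 37 members, 6 had an unadjusted p under 0.05, namely Fasl, Ltb, Tnfrsf10b, Tnfrsf21, Tnfrsf22 and Tnfrsf9. The share of all probes at that unadjusted level was not computed. No alternative brought a member past the adjusted threshold. Fasl had the lowest adjusted p, 0.411, with a difference of -0.45 ± 0.11 on the log2 scale. The differences of Tnfrsf9, Ltb and Tnfrsf10b were -0.43 ± 0.12, -0.35 ± 0.13 and -0.30 ± 0.11, and those of Tnfrsf21 and Tnfrsf22 were 0.44 ± 0.18 and 0.37 ± 0.11. A different response is therefore not shown for the members called in one population only (Fas, Fasl, Ltb, Tnfrsf12a, Tnfrsf22 and Tnfrsf9). For Lta and Tnfrsf11b the difference was -0.01 ± 0.18 for each gene, and for Tnf it was -0.18 ± 0.12.

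**Figure D4:**
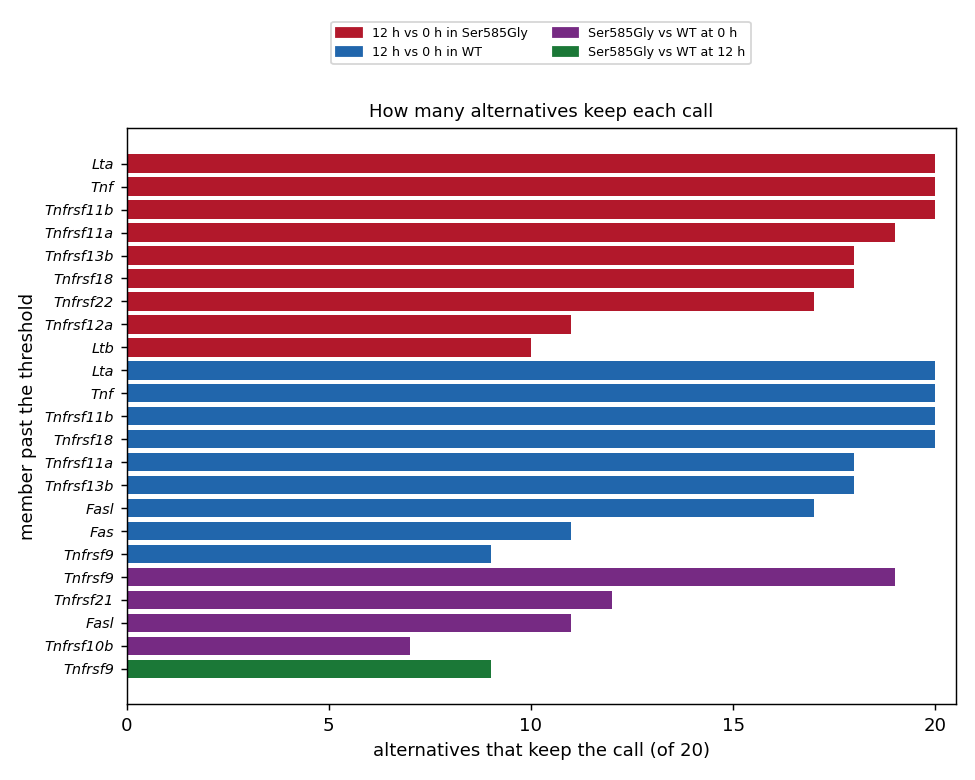
Number of the 20 alternative settings, 8 of them fits without 1 array, under which each call of a member stays past the threshold (horizontal axis), by member (vertical axis) and comparison (colour). Of 23 calls, 7 stay under all 20: Lta, Tnf and Tnfrsf11b in both populations and Tnfrsf18 in WT cells.

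Over the 4 comparisons with calls, 14 members made 23 calls. Of these, 7 held under all 20 alternatives, 16 were lost under at least 1, and 10 were lost with the arrays of each edge averaged. No called value changed sign under an alternative, and the alternatives together added 29 calls of members. The plot of kept alternatives shows that the calls of Lta, Tnf and Tnfrsf11b in both populations and of Tnfrsf18 in WT cells depended on no single array. The Tnfrsf9 call at 0 h also depended on no single array, but it was lost with its probes averaged (adjusted p = 0.0946 in the limma fit).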

How the data were processed

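The 8 two-colour oligonucleotide arrays of total RNA from CTL-EN cells comprised 2 dye orientations for each of 4 edges. Spot and local background intensity in Cy5 and Cy3 were deposited for 23040 spots per array, not normalised per the file headers; the scanner software was not stated there. The authors deposited a table of log2 ratios of Cy5 over Cy3, for which the submitters' processing notes name limma. Array files carry no probe names. Table rows were matched to spots by their 8 ratios, and names were then moved to a recovered 24-pin print order, so every gene name rests on that order; 21779 probes were placed and 16644 had 1 symbol.

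Intensities were corrected by normexp (offset 50), normalised within arrays by loess (span 0.3, controls at weight 0), and turned so that 12 h or Ser585Gly stands over 0 h or WT. All 8 arrays entered 1 fit in limma (3.58.1, R 4.3.3) whose terms were mutation, time, the interaction of both and the dye; it had 4 residual degrees of freedom and a prior of 4.36. P-values are two-sided, with Benjamini-Hochberg adjustment over all placed probes. Levels per condition were taken per channel after Aquantile scaling. The script was also run on simulated data with independent normal noise. Those data held no dye effect and no error shared within an array, so the run does not test how these affect the calls. Brightness is the mean log2 intensity over arrays, and empty means under the 95th percentile of 244 empty wells. The number of arrays limits the precision. Named with values were members past the threshold and 11 members fixed by role; others are given by ranges, or named beside a partner or neighbour, a choice made after their values were seen. Up to 5 genes per pathway list and comparison are named. Members, lists and tests were chosen with earlier results of these data known. Tried were other background corrections, normalisations, priors, probe rules and array sets.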

Additional observations from a re-analysis of the deposited data

How the results depend on the processing

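Counts for the members changed with the setting most in the mutation comparisons. Members past the threshold between Ser585Gly and WT at 0 h, 4 as reported, were 7 with print-tip loess, 2 with median centring, 8 with the deposited ratios, 1 with averaged arrays, 10 with the pair as a random block (estimated correlation -0.326), 1 with direct arrays and 2 with probes averaged. At 12 h, 1 as reported, they were 0 with median centring, averaged arrays, direct arrays and averaged probes, 2 with scaled arrays and the random block, and 8 with the deposited ratios. In the time comparisons the member count stayed within 1.5 times of 9 except without single arrays. Of all probes, 2277 passed over time in Ser585Gly cells, against 4278 with print-tip loess, 4238 with the deposited ratios, 1344 with averaged arrays, 4306 with the random block and 1147 with direct arrays. In WT cells 2061 passed, against 4077, 4176, 1069, 4183 and 885 under those settings in that order. At 0 h 886 passed between the populations, against 2041, 2553, 277, 3385 and 227 in that order and 546 with median centring. At 12 h 374 passed, against 994, 2205, 155, 1133 and 159 in that order and 736 with scaled arrays. For the difference of the responses 12 passed, against 49, 90, 0, 35 and 0 in that order, 20 without background correction, 20 with subtraction, 1 with scaled arrays and 21 with the trended prior. The cause was not tested. Without 1 array, the members past the threshold over time numbered 3 to 10 in Ser585Gly cells (3 without array 1 and 5 without array 2 of that edge) and 4 to 9 in WT cells (4 without either array of that edge). They numbered 1 to 3 at 0 h, 0 to 1 at 12 h and 0 to 0 for the difference; probes numbered 269 to 3430, 411 to 3302, 110 to 637, 68 to 627 and 0 to 5 in the same order. The highest probe counts over time came without array 1 of the 0 h mutation edge. No paired analysis was possible because the array numbers mark the dye orientation and name no shared sample across the edges. Signal over background limits Cd70, Ltbr, Tnfrsf25, Tnfsf11, Tnfsf13 and Tnfsf4.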
